A study of Sus scrofa with 40 samples.

Results

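The genes described here carry the transforming growth factor beta (TGF-beta) and bone morphogenetic protein (BMP) signals from the cell surface to the nucleus: the ligands TGFB1 and BMP7, the receptor TGFBR1, the signal transducers SMAD2, SMAD3, SMAD4 and SMAD5, the inhibitors SMAD6 and SMAD7, and the target gene ID1. They were chosen by name: a spot of the porcine microarray belonged to them if its gene name field held one of these 10 symbols, or if its description gave the symbol in brackets. The rule found 19 of 43803 non-control spots, which stand for 10 of the 35955 transcript identifiers on the array. These 10 identifiers belong to 9 of the 10 symbols, with 2 identifiers for SMAD2, and no spot matched SMAD5, so SMAD5 was not analysed here. All counts of members below are out of the 10 identifiers.

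The samples were kidney tissue of Large White pigs aged 3 months, taken from the cortex (C) and from the corticomedullary junction (CMJ), the border zone of cortex and medulla that is known for its sensitivity to lack of oxygen. In each of the 2 tissues there were 4 groups of 5 samples: kidneys without ischemia (Ctl), kidneys after 60 min of warm ischemia at 37 °C (WI), and kidneys that had the same warm ischemia and were then flushed with and kept in University of Wisconsin solution at 4 °C for 6 h (WI+CS6h) or for 24 h (WI+CS24h). The labels give the flush for the cold-stored kidneys alone, so that flush, cold and time after clamping cannot be told apart. The labels give 15 kidneys in all, and the same 5 kidneys were sampled at 6 h and at 24 h of cold storage, so that the cold-stored groups were not independent of each other. With 15 kidneys for 40 samples, the cortex and CMJ samples of a condition came from the same kidneys as well. No reperfusion is given for any group, and each sample was RNA from a whole piece of tissue, so that the values describe all cell types of the piece together.

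Each of the 40 samples was hybridised to 1 one-colour Agilent array, and values below are log2 of the quantile-normalised signal, averaged over the probes of an identifier. Between 57.0% and 69.9% of the non-control spots of an array were well above background by the scanner software, and arrays of 1 group correlated with r between 0.954 and 0.995. A difference was called when limma gave an adjusted p under 0.05 over all identifiers and the log2 difference was at least 0.5 in either direction. Markers of the proximal tubule, the main cell type of the cortex, had a mean signal of 10.12 to 11.43 on every array of both tissues. The Ctl-CMJ arrays had higher signals than the Ctl-C arrays for KCNJ1 and SLC12A1, 2 transport proteins of the thick ascending limb, and 2 of 5 identifiers of the thick limb and distal list were called in this direction. WI-CMJ replicates 1, 3 and 5 held the fat marker ADIPOQ at 6.23, 7.05 and 7.53, whereas the other WI-CMJ arrays had it at 0.50 and 0.48, and calls that rest on WI-CMJ are therefore also given without these 3 arrays, which leaves 2 arrays in that group.

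Ligands of the TGF-beta family bind pairs of type I and type II receptors, which are kinases. TGFBR1, the type I receptor for TGF-beta, phosphorylates SMAD2 and SMAD3, whereas the type I receptors for BMPs phosphorylate SMAD1, SMAD5 and SMAD9, and both kinds of SMAD enter the nucleus with the shared partner SMAD4. SMAD6 and SMAD7 are the inhibitory SMADs: they are themselves induced by the pathway and act back on it, SMAD6 mainly on the BMP arm and SMAD7 on both arms. ID1 encodes an inhibitor of differentiation protein that blocks basic helix-loop-helix transcription factors, and it is a direct target of BMP signaling. In the kidney, TGFB1 is known as a driver of scarring, and BMP7 as a factor of tubular cells that is needed for kidney development and counteracts TGF-beta.

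The number of probes set how each gene was read: SMAD4 had 5, SMAD6 had 3, TGFB1, SMAD3 and SMAD7 had 2 each, and BMP7, TGFBR1, ID1 and both SMAD2 identifiers had 1. The probes shown are those that the results on single probes turn on. They are 60 bases long and are printed as the array files give them, and their start is the position on the transcript in the same files. In none of them is a part set in capitals.
SMAD6 probe, start 997 of ENSSSCT00000005460: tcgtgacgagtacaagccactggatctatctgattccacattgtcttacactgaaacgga
SMAD7 probe, start 856 of NM_001244175: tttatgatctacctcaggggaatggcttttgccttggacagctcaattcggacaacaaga
TGFB1 probe, start 1571 of NM_214015: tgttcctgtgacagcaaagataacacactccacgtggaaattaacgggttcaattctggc
Each of these 3 sequences could be read without a stop codon in 2 of 3 forward frames. The SMAD6 probes at 1678 and 1941, the SMAD7 probe at 2687 and the TGFB1 probe at 2948 lay further towards the 3′ end of their transcripts.

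SMAD6 rose in cold-stored kidneys of both tissues, at 6 h and at 24 h, by between 1.51-fold and 1.60-fold over Ctl, and no other member was called against Ctl in any group. This direction is opposite to the one in the study's text for most of these groups. The deposited matrix also had SMAD6 higher in all 4 cold-stored groups, by 0.42 to 0.52 on the log2 scale. ID1 rose by 1.53-fold and 1.57-fold in cold-stored cortex when compared with warm ischemia alone, but was not called against Ctl. TGFB1, BMP7, TGFBR1, SMAD2, SMAD3, SMAD4 and SMAD7 were called in none of the 12 comparisons within a tissue. In a bulk sample, more cells of a type and more RNA per cell cannot be told apart.

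**Figure D1:**
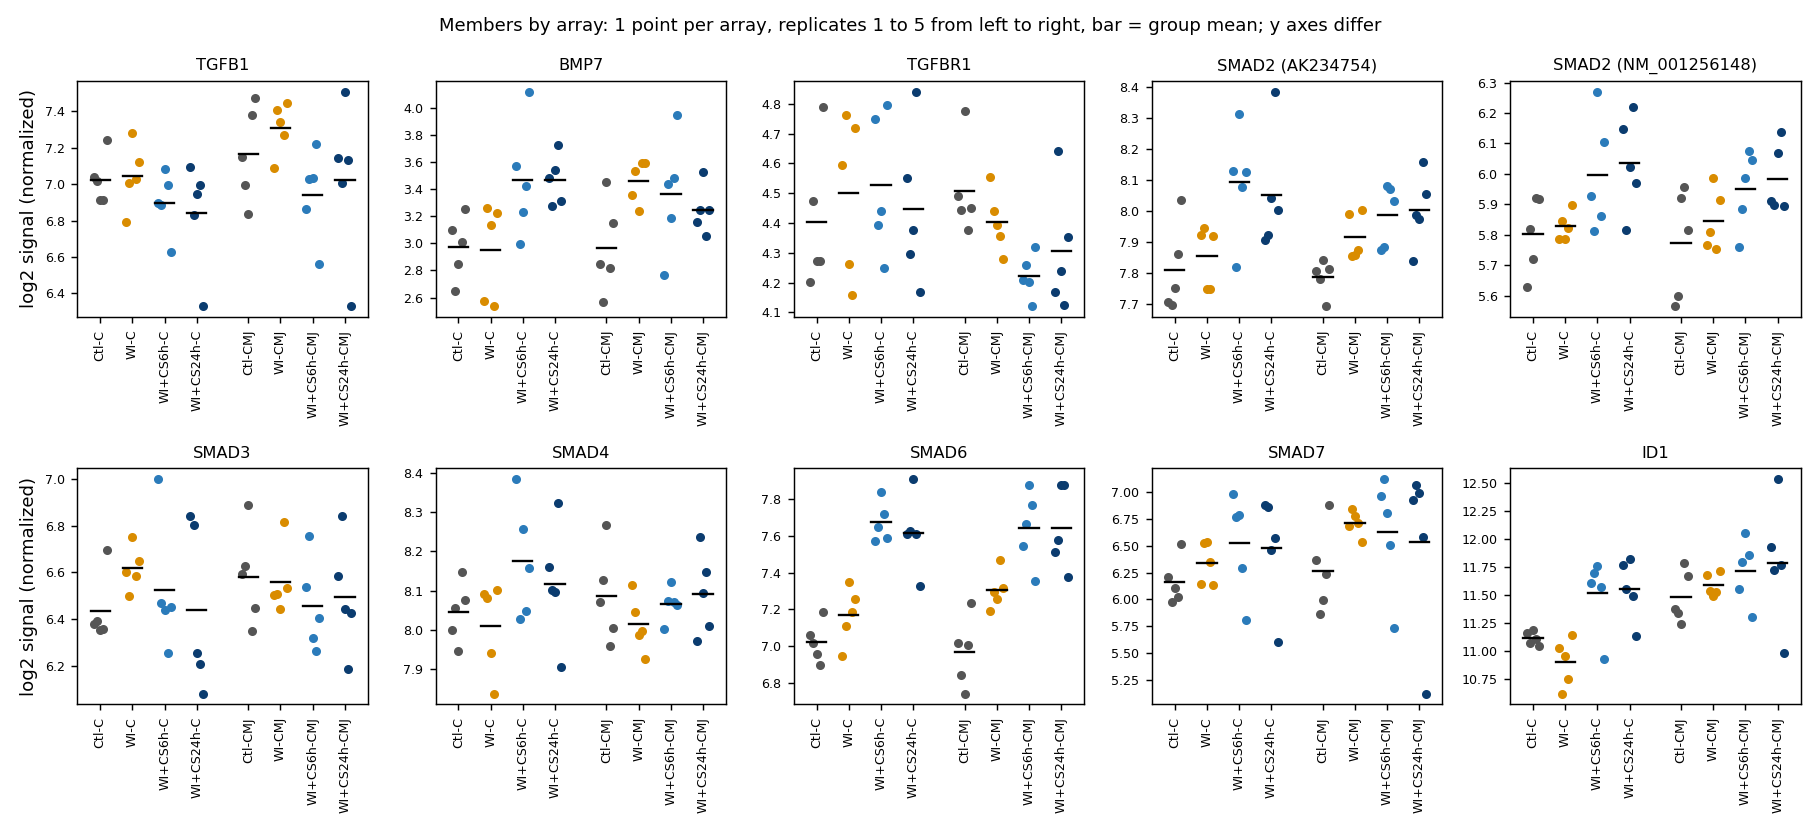
Log2 signal of each member (both identifiers for SMAD2) on every array, with 1 panel per identifier, the 8 groups along the x axis, 1 point per array in the order of replicates 1 to 5 and a bar at each group mean; the y axes differ between panels. In the SMAD6 panel all cold-stored arrays lie between 7.33 and 7.91, above all Ctl arrays, which lie between 6.74 and 7.24, and in the SMAD7 and ID1 panels the last point of each cold-stored group is the lowest.

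After warm ischemia alone, 0 of 10 members were called in the cortex, where 0.0946% of all 35939 identifiers tested were called. In the CMJ 0 of 10 were called against 0.687% of 35938. At an unadjusted p under 0.05, limma counted 0 members in the cortex and 2 in the CMJ, BMP7 and SMAD6. No member had cortex arrays apart from Ctl-C, against 1.68% of all identifiers, and 1 did so in the CMJ, SMAD2 (AK234754), against 3.90%.

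Cold storage for 6 h gave 1 called member in the cortex, where 4.02% of all identifiers were called, and 1 in the CMJ, where 3.19% were. After 24 h there was again 1 called member in the cortex, against 2.50% of all identifiers, and 1 in the CMJ, against 3.65%. The member called was SMAD6 each time, and a count of 1 in 10 cannot be set apart from such shares. Arrays of cold-stored and Ctl kidneys did not overlap for 1 member at 6 h and 2 at 24 h in the cortex (SMAD6, and BMP7 at 24 h), against 5.23% and 5.73% of all identifiers. In the CMJ they did not overlap for 3 members at 6 h (SMAD6, SMAD2 and TGFBR1) and 1 at 24 h (SMAD6), against 5.96% and 5.45%. The median log2 difference of the 10 members from Ctl was 0.24 at both times in the cortex and 0.19 and 0.21 in the CMJ, beside medians over all identifiers of 0.05, 0.01, -0.01 and 0.00.

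Against warm ischemia alone, 2 members (SMAD6 and ID1) were called at 6 h in the cortex, where 1.93% of all identifiers were called, and 1 (ID1) at 24 h, where 1.20% were. No member was called in this comparison in the CMJ, where 2.78% and 2.85% of all identifiers were called, and 1 member (SMAD6) was under an unadjusted p of 0.05 at each time. Between 24 h and 6 h of cold storage 0 members were called in the cortex and 0 in the CMJ, where 0% and 0.00278% of all identifiers were called, and 0 were under an unadjusted p of 0.05 in either tissue. The same 5 kidneys gave both times. Without the 3 WI-CMJ arrays that held ADIPOQ, 0 of 10 members were called in each comparison with WI-CMJ, as with all arrays, and the largest move of a difference was 0.10.

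**Figure D2:**
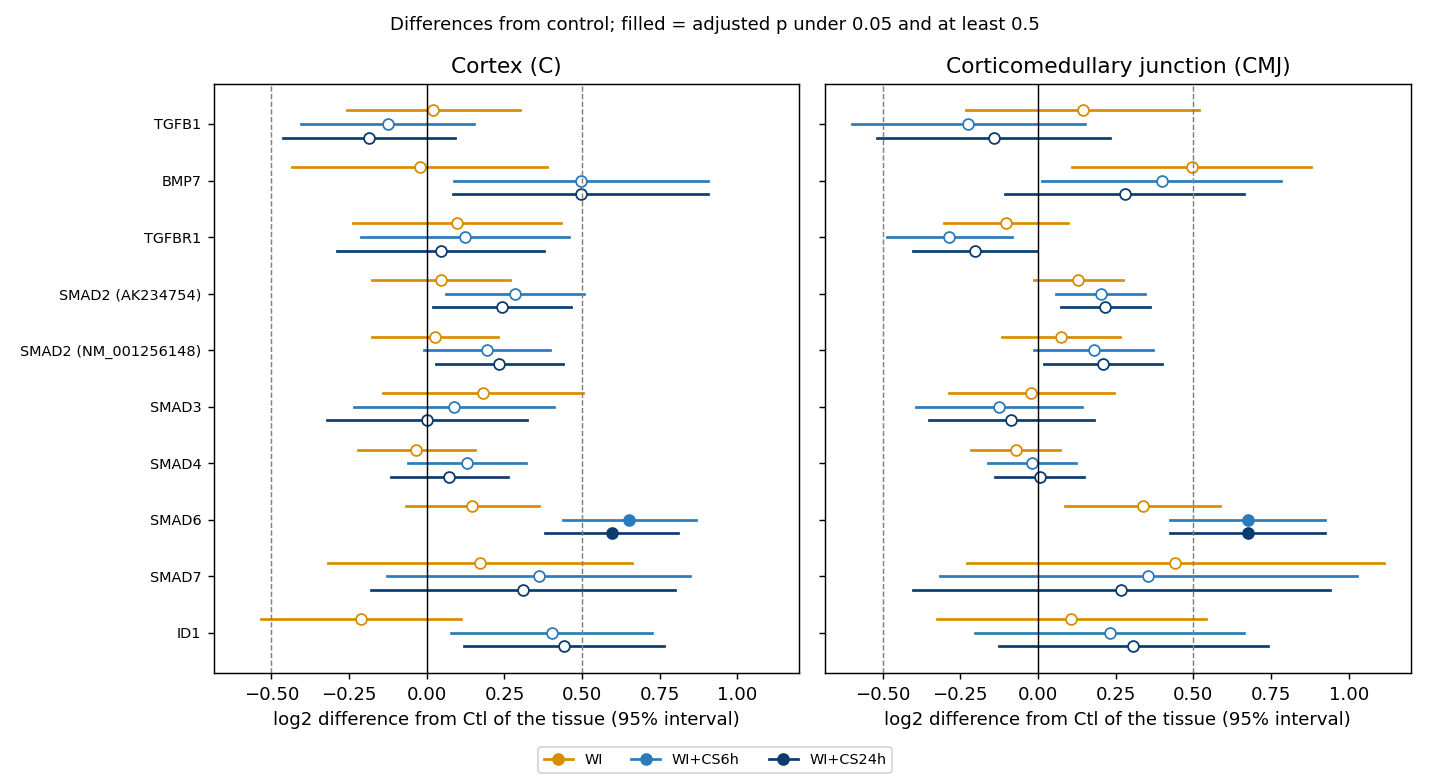
Log2 difference of each member from Ctl of the same tissue in WI, WI+CS6h and WI+CS24h kidneys (n = 5 each), with 95% confidence intervals from limma, for the cortex and the CMJ; filled symbols were called and dashed lines mark 0.5 in either direction. SMAD6 at 6 h and 24 h is the only member with filled symbols, at 0.65 and 0.60 in the cortex and 0.68 and 0.68 in the CMJ.

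TGFB1, the main ligand of the TGF-beta arm, was not called in any comparison. Its group means in the cortex were 7.02 ± 0.13 in Ctl, 7.05 ± 0.18 in WI, 6.90 ± 0.17 in WI+CS6h and 6.84 ± 0.30 in WI+CS24h (SD, n = 5). In the CMJ they were 7.17 ± 0.26, 7.31 ± 0.14, 6.94 ± 0.25 and 7.02 ± 0.43. The means of cold-stored kidneys lay under those of WI kidneys in both tissues, and the groups overlapped. Without replicate 5 the cold-stored means were nearer to WI, at 6.97 and 6.97 in the cortex and 7.04 and 7.20 in the CMJ (6 h and 24 h). With all arrays, the widest difference between cold-stored and WI kidneys, WI+CS6h-CMJ against WI-CMJ, was -0.37 (95% confidence interval -0.74 to 0.01, limma adjusted p = 0.308).

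Its 2 probes read this difference unequally. The probe at 1571, whose sequence is given above, had 6.48, 6.98, 6.98, 6.80 and 7.09 in WI-CMJ and 6.26, 6.47, 6.06, 6.43 and 5.87 in WI+CS6h-CMJ. Every cold-stored array was thus under every WI array. The difference of -0.65 (SE 0.17) was called in the fit of single probes (limma adjusted p = 0.0396), where 3.28% of 43579 probes were called in that comparison. Without the 3 WI-CMJ arrays that held ADIPOQ it was -0.67 and not called (adjusted p = 0.229). At 24 h the same probe differed by -0.53 (adjusted p = 0.098), where 3.34% of probes were called. The probe at 2948 differed by -0.09 and -0.05 at these times, with 95% intervals of -0.53 to 0.36 and -0.49 to 0.40.

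BMP7 was dim, and it was well above background on 36 of the 40 arrays. Its values in Ctl-C were 3.10, 2.65, 2.85, 3.01 and 3.26. In WI+CS24h-C they were 3.48, 3.27, 3.54, 3.73 and 3.31, all above the Ctl-C arrays. The difference from Ctl-C was 0.50 at both times of cold storage (95% confidence intervals 0.09 to 0.91, limma adjusted p = 0.154 at 6 h and 0.207 at 24 h), and after warm ischemia alone it was -0.02 (-0.43 to 0.39). The size depended on the background correction and the scaling: the differences at 6 h and 24 h were 0.06 and 0.06 with normexp, 0.17 and 0.11 in the deposited matrix, and 0.25 and 0.30 with quantile normalisation by group. In the CMJ the order was another: WI-CMJ had the highest mean, 3.46 ± 0.16 against 2.97 ± 0.34 in Ctl-CMJ, with 3.37 ± 0.43 at 6 h and 3.25 ± 0.17 at 24 h of cold storage (SD, n = 5). None of these differences was called, and the interaction of tissue with warm ischemia, which tests whether the change in the CMJ differed from that in the cortex, was 0.52 on the log2 scale and was not called either. Over the alternatives the interaction ran from 0.03 to 0.67, and the difference of WI-CMJ from Ctl-CMJ from 0.04 to 0.62. The difference of WI+CS6h-CMJ from Ctl-CMJ was 0.40, and 0.25 without replicate 5.

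TGFBR1, the type I receptor, had group means from 4.40 to 4.53 in the cortex, all within the spread of the arrays. In Ctl-CMJ its values were 4.49, 4.45, 4.78, 4.38 and 4.45. In WI+CS6h-CMJ they were 4.21, 4.26, 4.20, 4.12 and 4.32, each under the lowest Ctl-CMJ value. The difference of -0.29 (95% confidence interval -0.49 to -0.08) did not pass after adjustment (limma adjusted p = 0.110), and at 24 h it was -0.20 (-0.40 to -0.00, adjusted p = 0.277). Over 20 alternatives these differences ran from -0.32 to -0.04 at 6 h and from -0.29 to -0.04 at 24 h, without a call. The change at 6 h was lower in the CMJ than in the cortex by 0.41 (limma adjusted p = 0.836). Of the 3 interactions none was called for any member, at 0% of all 35934 identifiers each, and TGFBR1 at 6 h was the only member under an unadjusted p of 0.05 in any of them. The fit of 40 arrays behind them took all arrays as independent, although both tissues came from the same kidneys.

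Both SMAD2 identifiers, which read a receptor-activated SMAD of the TGF-beta arm, had higher means in all cold-stored groups than in Ctl. For the brighter one (AK234754) the Ctl-CMJ arrays had 7.81, 7.78, 7.84, 7.69 and 7.81. WI+CS6h-CMJ had 7.87, 7.88, 8.08, 8.07 and 8.03, and WI-CMJ had 7.99, 7.86, 7.86, 7.87 and 8.00. Both groups lay above all Ctl-CMJ arrays, though by small amounts: 0.20 at 6 h (95% confidence interval 0.06 to 0.34, limma adjusted p = 0.114) and 0.13 after WI (-0.01 to 0.27, adjusted p = 0.474). At 24 h the difference was 0.22 (0.07 to 0.36, adjusted p = 0.0782) with overlapping arrays, and in the cortex it was 0.28 (adjusted p = 0.132) at 6 h and 0.24 (adjusted p = 0.263) at 24 h. The second identifier (NM_001256148) differed from Ctl by 0.19 and 0.23 in cold-stored cortex and by 0.18 and 0.21 in cold-stored CMJ, again with no call.

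SMAD3, the other SMAD that TGFBR1 phosphorylates, had group means from 6.44 to 6.62. Its differences from Ctl ran from -0.13 to 0.18, and each 95% confidence interval lay within -0.39 and 0.50 and included 0. SMAD3 values spread within the cold-stored cortex, where they ran from 6.08 to 6.84 at 24 h. Its probes at 1364 and 2317 differed from Ctl by 0.23 and -0.05 in WI+CS6h-C and by -0.15 and 0.11 in WI-CMJ, and neither was called against Ctl in any group. A further identifier (ENSSSCT00000005464) described as SMAD family member 3, which gives no symbol and so fell outside the rule, had group means from 6.81 to 7.01.

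SMAD4, the partner shared by both arms, showed the narrowest range: its group means over 5 probes ran from 8.01 to 8.17. No difference from Ctl was beyond 0.13 in size. Over the 6 comparisons with Ctl the 95% confidence intervals ran from -0.22 at the lowest to 0.32 at the highest, and changes within these bounds could not be seen with 5 arrays a group. The 5 probes differed from Ctl-C by 0.01 to 0.27 in WI+CS6h-C. The highest of these, at the probe with start 3077, had all arrays apart but was not called (adjusted p = 0.0725).

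SMAD6, the inhibitory SMAD of the BMP arm, had 7.06, 7.01, 6.95, 6.90 and 7.19 in Ctl-C. Its WI-C values were 6.94, 7.11, 7.35, 7.19 and 7.26. In WI+CS6h-C it had 7.57, 7.65, 7.84, 7.72 and 7.59, and in WI+CS24h-C 7.61, 7.63, 7.91, 7.61 and 7.33. The cold-stored arrays lay above all Ctl-C arrays at both times, whereas the WI-C arrays overlapped with Ctl-C. The difference from Ctl-C was 0.65 ± 0.10 (SE, limma adjusted p = 0.00136) at 6 h and 0.60 ± 0.10 (adjusted p = 0.00317) at 24 h, in 5 of 5 arrays each, and 0.15 (95% confidence interval -0.07 to 0.36) after warm ischemia alone.

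The CMJ gave a like order. The Ctl-CMJ arrays had 7.01, 6.84, 6.74, 7.01 and 7.24, and the WI-CMJ arrays 7.19, 7.29, 7.26, 7.47 and 7.32. After cold storage the values were 7.55, 7.67, 7.88, 7.77 and 7.36 at 6 h and 7.51, 7.58, 7.88, 7.88 and 7.37 at 24 h. All cold-stored arrays lay above all Ctl-CMJ arrays, and the WI-CMJ arrays overlapped with both, with 1 of 5 under the highest Ctl-CMJ array. SMAD6 rose by 0.68 ± 0.12 on the log2 scale at both times (SE, limma adjusted p = 0.0026 and 0.00243). The difference of WI-CMJ from Ctl-CMJ was 0.34 (95% confidence interval 0.09 to 0.59, adjusted p = 0.21). With normexp background correction in place of the processed signal the 4 differences of cold-stored kidneys from Ctl were 0.31 and 0.30 in the cortex and 0.33 and 0.35 in the CMJ, under the size limit with limma adjusted p from 0.00133 to 0.00395.

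Against warm ischemia alone, SMAD6 rose by 0.51 ± 0.10 in WI+CS6h-C (limma adjusted p = 0.0134), with all arrays apart, which held for 1 member, against 3.27% of all identifiers. This call sat at the size limit and was lost in 8 of 20 alternatives, among them those without WI-C replicate 1 or 2 (0.45 and 0.49) or WI+CS6h-C replicate 3 or 4 (0.46 and 0.49). At 24 h in the cortex the difference was 0.45 (adjusted p = 0.0332), under the size limit, and 1 member (BMP7, not called) had its arrays apart, against 3.38% of all identifiers. In the CMJ the differences from WI were 0.34 at both times (adjusted p = 0.134 and 0.135), with overlapping arrays. The 24 h and 6 h values differed by -0.06 (95% confidence interval -0.27 to 0.16) in the cortex and by -0.00 (-0.25 to 0.25) in the CMJ. The interactions of tissue with treatment were 0.19 (-0.12 to 0.51) for WI, 0.02 (-0.29 to 0.34) for WI+CS6h and 0.08 (-0.24 to 0.40) for WI+CS24h.

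The SMAD6 differences from Ctl within slides and scan days are given for their size. Their sign was fixed beforehand, since all cold-stored arrays lay above all Ctl arrays of their tissue. The counts of slides thus add no test, and each slide value sets 1 array against 1 array. The arrays came on 10 slides of 4, and in the comparison of WI+CS6h-C with Ctl-C, 4 slides held both groups, with SMAD6 higher in the cold-stored arrays on 4 of 4 (log2 difference 0.41 to 0.94). For WI+CS24h-C this was so on 2 of 2 slides (0.57 to 0.90), for WI+CS6h-CMJ on 4 of 4 (0.43 to 0.86) and for WI+CS24h-CMJ on 2 of 2 (0.63 to 0.87). On each of 2 scan days these 4 differences lay between 0.52 and 0.78.

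SMAD6 is expressed in endothelium among other cell types, so the endothelial markers are given beside it. Of 10 listed markers, 7 had an identifier, with 10 identifiers in all, and 0 of these 10 were called in cold-stored cortex against Ctl-C, where their summed signal was 12.05 to 12.20 in Ctl-C, 11.90 to 12.20 in WI+CS6h-C and 11.84 to 12.29 in WI+CS24h-C on the log2 scale. Their mean log2 signal, to which each marker adds equally, was 7.32 to 7.53 in Ctl-C, 7.51 to 7.60 at 6 h and 7.31 to 7.75 at 24 h, and the median difference of the 10 from Ctl-C was 0.17 and 0.13. In the CMJ both identifiers of KDR, the receptor for vascular endothelial growth factor, were called higher at both times, by 0.53 and 0.59 at 6 h and 0.63 and 0.65 at 24 h, and the other 8 were not called. The summed signal there was 11.74 to 12.37 in Ctl-CMJ, 11.99 to 12.30 at 6 h and 11.77 to 12.56 at 24 h. The mean log2 signal was 7.06 to 7.69 in Ctl-CMJ, 7.48 to 7.74 at 6 h and 7.30 to 7.97 at 24 h, and the median difference from Ctl-CMJ was 0.13 and 0.22. The part of endothelial cells in the SMAD6 difference was not tested.

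All 3 SMAD6 probes were higher after cold storage, whereas after warm ischemia they gave unlike values. Against Ctl, the probe at 997 rose by 0.86 and 0.70 in the cortex and 0.84 and 0.81 in the CMJ (6 h and 24 h, limma adjusted p from 0.00363 to 0.0171), and the probe at 1678 by 0.60, 0.60, 0.70 and 0.70 (adjusted p from 0.00923 to 0.0126). The probe at 1941 differed by 0.50, 0.49, 0.49 and 0.52 (adjusted p from 0.00186 to 0.00404), and only the last of these reached the size limit. Of the 3 probes, 2 were called in WI+CS6h-C, WI+CS24h-C and WI+CS6h-CMJ, where 4.45%, 2.90% and 3.33% of all probes were called, and 3 in WI+CS24h-CMJ, where 3.70% were.

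After warm ischemia alone the probe at 997 stood out. It had 4.67, 4.48, 4.24, 4.62 and 5.04 in Ctl-CMJ, and 4.95, 5.46, 5.39, 5.62 and 5.36 in WI-CMJ. Of the WI-CMJ arrays 4 of 5 lay above all Ctl-CMJ arrays, and the probe rose by 0.75 ± 0.16 (SE, limma adjusted p = 0.0355), where 0.787% of 43579 probes were called. Without the 3 WI-CMJ arrays that held ADIPOQ the difference was 0.93 and not called (adjusted p = 0.0917). In the cortex it differed by 0.51 (95% confidence interval 0.18 to 0.83, adjusted p = 0.566), where 0.0849% of 43581 probes were called. The probes at 1678 and 1941 differed from Ctl by 0.01 and -0.07 after warm ischemia in the cortex and by 0.23 and 0.04 in the CMJ.

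The differences between cold-stored and warm-ischemic kidneys were larger for the other probes. In the cortex the probe at 1941 rose over WI-C by 0.57 at 6 h and 0.56 at 24 h, and the probe at 1678 by 0.59 at both times, all 4 called (limma adjusted p from 0.00161 to 0.0202), where 2.44% and 1.68% of all probes were called. In the CMJ these probes differed from WI-CMJ by less than the size limit, by 0.47 at both times for the probe at 1678 (adjusted p = 0.082 and 0.0825) and by 0.45 and 0.48 for the probe at 1941 (adjusted p = 0.00707 and 0.00386). The probe at 997 differed from WI-C by 0.35 and 0.19 and from WI-CMJ by 0.10 and 0.06, with no call. In the CMJ the mean of the probe at 997 after warm ischemia, 5.36, was thus near those of cold storage, 5.45 and 5.41. In the cortex it lay between Ctl-C and cold storage, at 5.19 beside 4.69 in Ctl-C and 5.54 and 5.38 after cold storage, with WI-C replicate 1 (4.59) among the Ctl-C arrays. The difference between probes was itself not tested, nor was whether they read different transcripts.

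**Figure D3:**
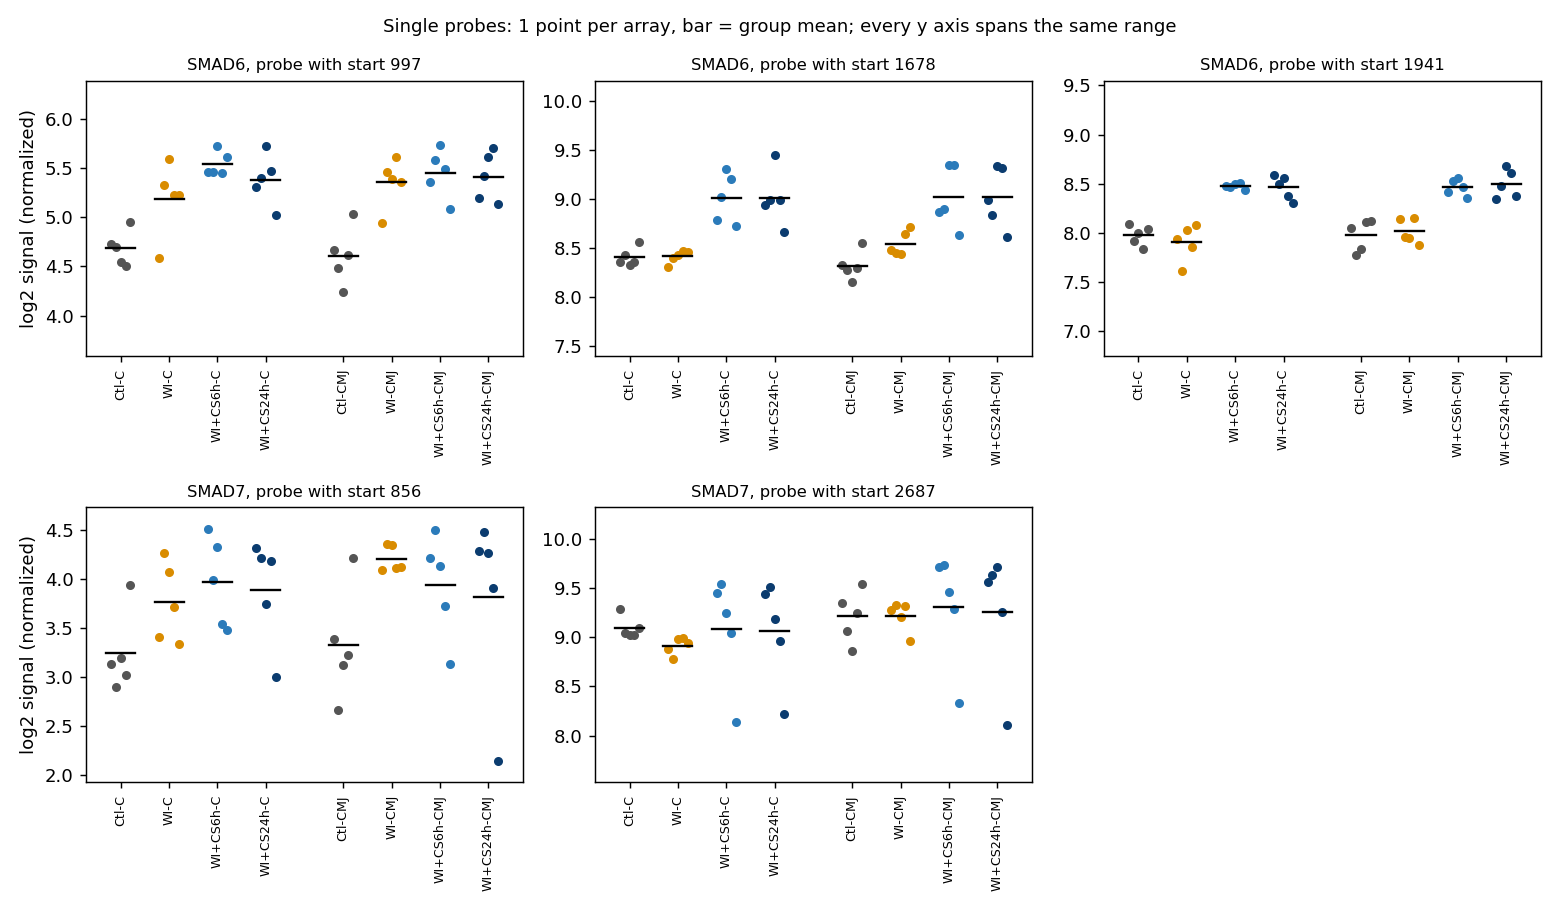
Log2 signal of the SMAD6 probes starting at 997, 1678 and 1941 and of the SMAD7 probes starting at 856 and 2687 on each of the 40 arrays, by group, with a bar at each group mean and y axes of equal span. For the SMAD6 probe at 997 the mean of WI-CMJ lies near its cold-stored groups and that of WI-C between Ctl-C and cold storage, with replicate 1 of each WI group, at 4.59 and 4.95, under all cold-stored arrays.

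SMAD7, which inhibits both arms of the pathway, was not called in any comparison and had the widest spread among the cold-stored arrays. Ctl-CMJ had 6.37, 5.87, 5.99, 6.24 and 6.88, and WI-CMJ 6.69, 6.84, 6.77, 6.71 and 6.54. At 6 h of cold storage the CMJ values were 6.96, 7.12, 6.80, 6.51 and 5.73, and at 24 h 6.92, 7.06, 6.99, 6.58 and 5.13. Among the first 4 cold-stored arrays, 6.96 and 7.12 at 6 h and 6.92, 7.06 and 6.99 at 24 h lay above all WI-CMJ arrays. The others of these were near the WI-CMJ level, and replicate 5 was under every Ctl-CMJ array. The difference from Ctl-CMJ was 0.44 (95% confidence interval -0.23 to 1.11) after WI, 0.35 (-0.32 to 1.03) at 6 h and 0.27 (-0.40 to 0.94) at 24 h. Without replicate 5 of the cold-stored group it was 0.58 (-0.07 to 1.23, limma adjusted p = 0.406) at 6 h and 0.62 (0.12 to 1.12, adjusted p = 0.166) at 24 h.

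In the cortex SMAD7 had 6.21, 5.97, 6.11, 6.02 and 6.52 in Ctl. At 6 h of cold storage it had 6.98, 6.76, 6.78, 6.29 and 5.81, and at 24 h 6.88, 6.86, 6.46, 6.57 and 5.61. Replicate 5 was again under all Ctl arrays. The differences from Ctl-C were 0.36 (-0.13 to 0.85, limma adjusted p = 0.361) and 0.31 (-0.18 to 0.80, adjusted p = 0.551). Without replicate 5 of the cold-stored group they were 0.54 (adjusted p = 0.21) and 0.53 (adjusted p = 0.177), and not called. With normexp and all arrays, the differences of cold-stored kidneys from Ctl were 0.05 and 0.04 in the cortex and 0.08 and 0.05 in the CMJ. Its probe at 856 was dim, well above background on 37 of 40 arrays, and differed from Ctl by 0.52 to 0.73 in the cortex and 0.49 to 0.88 in the CMJ. The probe at 2687 differed by -0.18 to 0.09, and neither was called.

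ID1, the BMP target, had 11.16, 11.07, 11.19, 11.10 and 11.04 in Ctl-C. In WI-C it had 11.03, 10.62, 10.96, 10.75 and 11.15. Cold-stored cortex had 11.61, 11.70, 11.75, 11.57 and 10.93 at 6 h, and 11.77, 11.55, 11.83, 11.49 and 11.13 at 24 h. Replicates 1 to 4 of the cold-stored groups lay above all Ctl-C and WI-C arrays, and replicate 5 lay among the WI-C arrays. ID1 rose over WI-C by 0.61 ± 0.15 at 6 h (SE, limma adjusted p = 0.0418) and by 0.65 ± 0.15 at 24 h (adjusted p = 0.0399), whereas the differences from Ctl-C were 0.40 (adjusted p = 0.142) and 0.44 (adjusted p = 0.145).

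Within slides, ID1 was higher in cold-stored than in WI cortex on 2 of 2 slides at 6 h (0.55 to 0.82) and 4 of 4 at 24 h (0.46 to 0.81). Each value sets 1 array against 1 array. The sign was fixed beforehand for replicates 1 to 4, which lay above all WI-C arrays. Of the 20 alternative settings for each of these comparisons, 9 left ID1 without a call (adjusted p up to 0.192 at 6 h and 0.111 at 24 h). It lost the call without any one of replicates 1 to 4 of WI-C or of the cold-stored group. Without replicate 5 of the cold-stored group the difference was 0.76 at both times (adjusted p = 0.00472 at 6 h and 0.015 at 24 h).

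In the CMJ the ID1 means were 11.48 ± 0.23 in Ctl, 11.59 ± 0.10 in WI, 11.71 ± 0.29 at 6 h and 11.79 ± 0.55 at 24 h (SD, n = 5). The differences from Ctl-CMJ were 0.11, 0.23 and 0.31, and their 95% confidence intervals reached from -0.33 at the lowest to 0.74 at the highest and all included 0. Without WI+CS24h-CMJ replicate 5 the difference at 24 h was 0.51 (0.15 to 0.87, limma adjusted p = 0.111). Between the 2 control groups, ID1 was higher in Ctl-CMJ than in Ctl-C on all arrays, by 0.37 (-0.00 to 0.74, limma adjusted p = 0.825). It was 1 member of 10 with control arrays apart, against 2.45% of all identifiers, and 0 members were called between the control tissues, where 0.312% of all 35934 identifiers were.

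Replicate 5 of the cold-stored groups had low values in several members. TGFB1, SMAD7 and ID1 had their lowest value in replicate 5 in all 4 cold-stored groups, and SMAD6 did so in 3 of 4. SMAD7 in replicate 5 lay under the mean of the other 4 arrays by values of -0.90 and -1.09 in the cortex and -1.11 and -1.76 in the CMJ (6 h and 24 h), and ID1 by -0.73, -0.53, -0.52 and -1.0. For TGFB1 the same differences were -0.34, -0.63, -0.47 and -0.87, and for SMAD6 -0.10, -0.36, -0.36 and -0.34. BMP7 showed no such pattern, with 0.82, -0.20, 0.73 and 0.00.

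The pattern went beyond these genes. Of all 35955 identifiers, 1948 (5.42%) were lowest in replicate 5 in all 4 cold-stored groups, whereas each of the replicates 1 to 4 had this place for 45 to 81 identifiers. ID2 and ID3, which encode proteins of the same family as ID1, and CTGF, a target of TGF-beta in matrix production, were also lowest there in all 4 groups. The 4 arrays had 57.0% (WI+CS6h-C), 67.0% (WI+CS24h-C), 64.3% (WI+CS6h-CMJ) and 66.0% (WI+CS24h-CMJ) of spots well above background. The labels do not say that replicate 5 was the same kidney in all 4 groups.

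**Figure D4:**
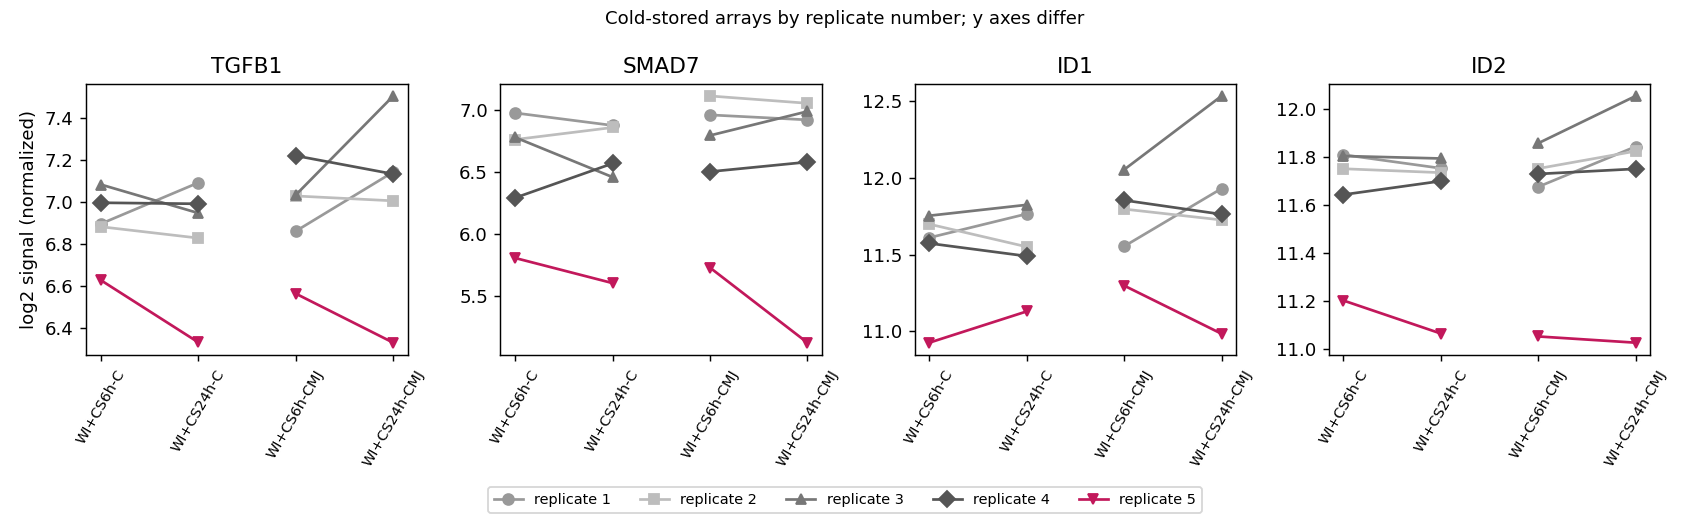
Log2 signal of TGFB1, SMAD7, ID1 and ID2 in the 4 cold-stored groups, with 1 point per array, lines between equal replicate numbers of a tissue, and replicate 5 in magenta. Replicate 5 is the lowest point of every group in all 4 panels, and lies furthest from the other arrays for SMAD7 in WI+CS24h-CMJ, at 5.13 beside a mean of 6.89 of the other 4.

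Across the 40 arrays the identifiers with a symbol whose signal was most like that of SMAD6 were HLX (Pearson r = 0.91), NR4A2 (0.90) and BTG2 (0.90). For ID1 they were ID3 (0.93), CCND2 (0.90) and IER5L (0.89). HLX had group means of 8.81, 8.87, 9.87 and 9.88 in the cortex and 8.76, 9.35, 10.06 and 10.06 in the CMJ, in the order Ctl, WI, WI+CS6h and WI+CS24h, with both cold-stored groups highest, as for SMAD6. Since HLX was picked for its likeness to SMAD6 on these arrays, this order is no separate result. Among the members the highest correlations over the 40 arrays were 0.63 for SMAD6 with ID1 and 0.62 each for SMAD7 with ID1, SMAD2 with SMAD6, TGFB1 with SMAD7 and TGFBR1 with SMAD4. These are descriptions over arrays that share groups, kidneys and slides. By the RefSeq gene table of Sscrofa11.1, SMAD6 and SMAD3 are neighbours with 0 coding genes between them, SMAD2 and SMAD7 lie 2 genes apart, and SMAD7 and SMAD4 lie 12 apart, and of each pair at most 1 gene was called.

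Of 74 further genes of the pathway, 57 had an identifier, with 71 identifiers in all: 17 of ligands, 17 of receptors, 14 of extracellular regulators, 14 of intracellular regulators and 9 of targets. Against Ctl, 0 of 71 were called after warm ischemia in the cortex and 0 in the CMJ. In cold-stored cortex 2 were called at 6 h and 2 at 24 h, SMURF1 and ID2 each time, and in cold-stored CMJ 2 at 6 h (BAMBI and ID2) and 4 at 24 h (these and SMURF1 and NODAL). Against WI, 2 and 2 were called in the cortex and 5 and 7 in the CMJ, and 0 differed between 24 h and 6 h in either tissue. The percentages over all identifiers given above apply to these counts too.

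SMURF1, a ubiquitin ligase that marks BMP-arm SMADs and receptors for breakdown and works with the inhibitory SMADs, fell after cold storage. In Ctl-C it had 9.07, 8.97, 9.14, 8.75 and 9.02, and in WI-C values from 8.77 to 9.10. Cold-stored cortex had 7.69, 8.15, 8.34, 8.58 and 8.12 at 6 h and 8.09, 7.92, 8.47, 8.43 and 8.24 at 24 h. All cold-stored arrays lay under all Ctl-C and WI-C arrays. The level fell by 0.81 at 6 h and by 0.76 at 24 h against Ctl-C (limma adjusted p = 0.00363 and 0.00689), and both calls held in 20 of 20 alternative settings.

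In the CMJ, SMURF1 had means of 8.83 in Ctl, 8.86 in WI, 8.36 at 6 h and 8.27 at 24 h. It fell by 0.56 at 24 h against Ctl-CMJ (limma adjusted p = 0.00431), and at 6 h the difference of -0.48 was under the size limit. The call at 24 h held in 16 of 20 alternatives. It was lost with quantile normalisation by group, normexp and the deposited matrix, and without WI+CS24h-CMJ replicate 2. Against WI-CMJ, SMURF1 fell by 0.50 (adjusted p = 0.013) and by 0.59 (adjusted p = 0.00424), with arrays apart, as were 5.91% and 4.58% of all identifiers. These calls held in 12 and 18 of 21 alternatives. SMURF1 was the 1 pathway gene that stayed called against WI-CMJ without the 3 arrays that held ADIPOQ, at -0.62 (adjusted p = 0.0472) and -0.71 (adjusted p = 0.0268).

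ID2, an inhibitor of differentiation like ID1, rose in cold-stored kidneys of both tissues. Its values in Ctl-C were 10.78, 10.80, 10.75, 10.96 and 11.10, and in WI+CS6h-C 11.81, 11.75, 11.80, 11.64 and 11.20. The rise over Ctl-C was 0.76 ± 0.14 at 6 h and 0.73 ± 0.14 at 24 h (SE, limma adjusted p = 0.00419 and 0.00708), called in 20 of 20 alternatives at each time, and over WI-C it was 0.68 and 0.65 (adjusted p = 0.0148 and 0.0242), called in 19 and 13 of 20 alternatives. At 24 h the call over WI-C was lost without WI-C replicate 2 or 3 or without any one of replicates 1 to 4 of WI+CS24h-C. In the CMJ it rose by 0.63 and 0.72 over Ctl-CMJ (adjusted p = 0.0385 and 0.0163). Replicate 5 of the cold-stored groups was the lowest each time, at 11.20, 11.07, 11.05 and 11.03, and the call at 6 h in the CMJ held in 11 of 20 alternatives.

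BAMBI, a decoy receptor without a kinase domain that dampens TGF-beta and BMP signals, rose in cold-stored CMJ. Ctl-CMJ had 10.43, 10.54, 10.78, 10.38 and 10.01, and WI-CMJ 10.35, 10.25, 10.31, 10.31 and 10.07. Cold-stored CMJ had 10.91, 10.87, 11.31, 11.22 and 10.89 at 6 h and 10.84, 11.09, 11.11, 11.38 and 10.92 at 24 h, above all other CMJ arrays. The rise was 0.61 and 0.64 over Ctl-CMJ (limma adjusted p = 0.0118 and 0.00762) and 0.78 and 0.81 over WI-CMJ (adjusted p = 0.00248 and 0.00185). In the cortex BAMBI differed from Ctl-C by 0.52 at 6 h (adjusted p = 0.0722), with all arrays above Ctl-C, and by 0.40 at 24 h (adjusted p = 0.217), with no call. The interactions of tissue with cold storage were 0.09 (95% confidence interval -0.34 to 0.52) and 0.24 (-0.19 to 0.66). Without the 3 WI-CMJ arrays that held ADIPOQ, the differences from WI-CMJ were 0.76 and 0.79, of like size but not called with 2 WI-CMJ arrays (adjusted p = 0.0836 and 0.0634).

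The remaining calls within a tissue were made in the CMJ. NODAL, a ligand of the activin type, rose in WI+CS24h-CMJ by 0.70 over Ctl-CMJ (limma adjusted p = 0.0101) and by 0.62 over WI-CMJ (adjusted p = 0.0274). Its differences from Ctl-C were of like size without a call, 0.70 at 6 h (adjusted p = 0.0573) and 0.57 at 24 h (adjusted p = 0.167), and the interactions of tissue with cold storage were -0.18 (95% confidence interval -0.71 to 0.35) and 0.14 (-0.39 to 0.66). The NODAL calls over Ctl-CMJ and WI-CMJ held in 17 of 20 and 12 of 21 alternatives. Both were lost with normexp, the deposited matrix and the groups compared alone, and the lowest differences were 0.10 and 0.09. Against WI-CMJ, FST, which encodes the activin-binding protein follistatin, fell by 1.29 at 6 h (adjusted p = 0.0147), CTGF fell by 0.75 and 0.68 (adjusted p = 0.0197 and 0.0328), the type II receptor gene TGFBR2 fell by 0.56 and 0.54 (adjusted p = 0.0236 and 0.0274), and BMP2 fell by 0.73 at 24 h (adjusted p = 0.0414). In the order Ctl-CMJ, WI-CMJ, 6 h and 24 h, the means were 4.20, 4.95, 3.66 and 4.20 for FST. For CTGF they were 9.16, 9.57, 8.81 and 8.89, for TGFBR2 7.38, 7.90, 7.34 and 7.36, and for BMP2 5.67, 6.04, 5.43 and 5.31. WI-CMJ thus lay above Ctl-CMJ in each, without a call. None of these calls against WI-CMJ was kept without the 3 WI-CMJ arrays that held ADIPOQ, with adjusted p from 0.131 to 0.406 and 2 WI-CMJ arrays. The differences were then -0.63 and -0.61 for TGFBR2, -0.62 and -0.55 for CTGF, -0.66 for BMP2 and 0.63 for NODAL, whereas that of FST was -0.82. Of 21 alternatives, the calls against WI-CMJ held in 17 for FST, 19 and 12 for CTGF, 14 and 9 for TGFBR2 and 11 for BMP2. FST also lost its call with normexp, the brightest probe and the deposited matrix, and its smallest difference was -0.08. In the cortex the differences from WI-C at 6 h and 24 h, none of them called, were -0.46 and -0.06 for FST, 0.11 and 0.15 for CTGF, -0.35 and -0.45 for TGFBR2 and -0.47 and -0.58 for BMP2. BMP6 was also called against WI-CMJ at 24 h, but it was not well above background on any array of either group, so no fold is given. CTGF was the 1 pathway gene called between the control tissues, higher in Ctl-CMJ by 1.12 (adjusted p = 0.00738).

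**Figure D5:**
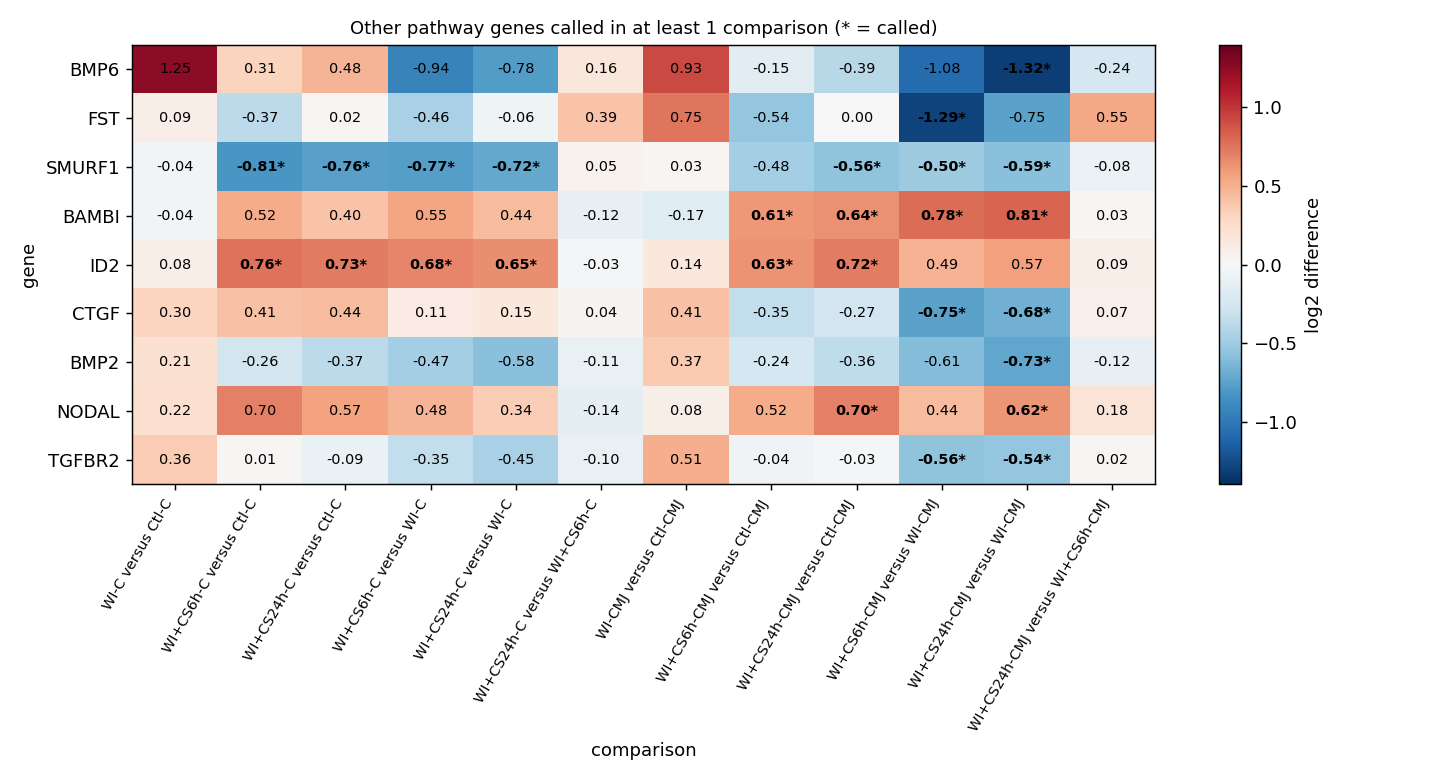
Log2 difference of the 9 further pathway genes called at least once, in rows, in the 12 comparisons within a tissue, in columns, on a colour scale centred on 0, with an asterisk for each call. SMURF1 is lower in all 8 columns of cold-stored kidneys against Ctl or WI and is called in 7 of them, and ID2 is higher in the columns of cold-stored kidneys against Ctl, from 0.63 to 0.76. The BMP6 values are no measured sizes, since its signal was well above background on only 1 of the 40 arrays.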

How the data were processed

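Per the file headers, the authors deposited spot intensities that Agilent Feature Extraction 11.5.1.1 had made from scans of one-colour (Cy3) porcine arrays, background-subtracted and not normalised between arrays. The authors also deposited a matrix of log2 values, quantile normalised with limma in R 2.15.2, which served as an alternative. Its column medians lay between 5.32 and 5.35, and 40 of 40 columns correlated best with their own array's scanner values (r from 0.941 to 0.943), so that scale and direction are known; its background correction is not given in the sources used here. The genome build behind the array's transcripts is not given in the sources used here.

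The processed intensities of 43803 non-control spots, without spots flagged as outliers, were turned into log2, quantile normalised over 40 arrays and averaged per identifier. Differences were tested with limma 3.58.1 in R 4.3.3, 1 term per group and 1 fit of 20 arrays per tissue (40 arrays for tissue comparisons and interactions), with Benjamini-Hochberg adjustment over all identifiers (35939 in the cortex, 35938 in the CMJ and 35934 in both). Interactions were called at an adjusted p under 0.05 with no size limit. None of these main fits took account of kidneys shared between tissues or between 6 h and 24 h of cold storage. Single probes were fitted likewise. Precision is limited by having 5 arrays in each group. Slides were checked as blocks and within-slide values were computed, as each of the 10 slides held 4 arrays. Samples of a group came from separate kidneys.

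The members, the pathway list and the marker lists were chosen with earlier results of these data known. All members, the pathway genes called at least once within a tissue, and the 3 identifiers most like each called member are named. Symbols came from the array files (8212 identifiers), the RefSeq table (966) or the description text (11). The steps were tested on simulated cortex arrays with independent noise and with changes larger than those of the called members. That test does not cover shared kidneys or differences of the size found for the members. Alternatives were scaling to the 75th percentile, quantile normalisation by group or tissue, normexp with an offset of 50, a filter on dim identifiers, the brightest probe, the deposited matrix, replicate and slide blocks, the compared groups alone, and each array left out in turn. A further 2 were added after the data were seen: leaving out the WI-CMJ arrays with ADIPOQ, and a replicate block over the cold-stored groups alone. Figures were drawn with matplotlib 3.10.9.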

Additional observations from a re-analysis of the deposited data

Results flagged for a closer look

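Of 80 checks of the 10 members in the 8 groups, 7 found 1 array whose gap to its nearest neighbour was over 0.71 of the range of its group. Chance gives such a gap in about 1 of 20 groups. TGFBR1 was high in Ctl-CMJ replicate 3 (4.78), and SMAD2 (AK234754) was high in WI+CS24h-C replicate 4 (8.39). SMAD3 was high on 3 arrays, Ctl-C replicate 5 (6.70), WI+CS6h-C replicate 1 (7.0005) and WI-CMJ replicate 4 (6.82). SMAD7 was low in WI+CS24h-CMJ replicate 5 (5.13), and ID1 was low in WI+CS6h-C replicate 5 (10.93). The last pair are both arrays of replicate 5 of a cold-stored group, the number with low values in TGFB1, SMAD7 and ID1 in all 4 such groups. What sets these arrays apart was not tested.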

How the results depend on the processing

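Of 7 called differences of members, none changed sign in the 20 alternatives run for each. The count of members called, 1 in each comparison of cold-stored kidneys with Ctl, moved as follows. For WI+CS6h-C it was 2 with scaling to the 75th percentile and 2 with quantile normalisation by group, and 0 with normexp and 0 with the deposited matrix. For WI+CS24h-C it was 0 with quantile normalisation by group, 0 with normexp and 0 with the deposited matrix. For WI+CS6h-CMJ it was 0 with normexp and 0 with the deposited matrix, and for WI+CS24h-CMJ 0 with normexp. Where the count was 0 SMAD6 fell short of the size limit only, with limma adjusted p up to 0.0122, and the differences were 0.44, 0.42 and 0.48 in the deposited matrix where it was lost. For WI+CS6h-C against WI-C (2 members) the count was 1 with scaling to the 75th percentile, 1 with normexp, 1 with slide as a random block and 0 with the groups compared alone. For WI+CS24h-C against WI-C (1 member) it was 2 with the brightest probe and 0 with the groups compared alone. With 1 array left out it ran from 1 to 2 for WI+CS6h-C against Ctl-C, with ID1 added without WI+CS6h-C replicate 5 (0.55, adjusted p = 0.0249), and from 0 to 2 for each cold-stored group against WI-C, with SMAD6 added at 24 h without WI+CS24h-C replicate 5 (0.52, adjusted p = 0.0106). The cause of these moves was not tested.

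Same-numbered arrays deviated together, with every correlation over 0.1, between WI+CS24h-CMJ and WI+CS6h-CMJ (0.33 to 0.61) and between both tissues at 6 h (0.13 to 0.46) and 24 h (0.14 to 0.48), but not between WI+CS24h-C and WI+CS6h-C (-0.31 to 0.36). The replicate block changed no member count: it gave 0, 1, 1, 2, 1 and 0 in the cortex and 0, 1, 1, 0, 0 and 0 in the CMJ, and 0 in both tissues for the cold-stored groups alone. Of 153 uncalled differences, 70 changed sign under some alternative. Quantile normalisation by group moved the median of all identifiers by -0.14 to 0.24. The intervals printed beside uncalled members bound what 5 arrays a group could show.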
